A study of Mus musculus with 12 samples.

Results

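The genes described here are 10 mouse genes that sense, take up, store and export iron, with hepcidin (Hamp) at their head. They were chosen by name from the 24062 genes of the count files, and their values across 2 liver cancer models and 2 diets are given. The members are the hormone gene Hamp, its inducer Bmp6 and the sensors Hfe and Tfr2, the uptake genes Tfrc, Trf and Slc11a2, the ferritin genes Fth1 and Ftl1, and the exporter Slc40a1. All 10 were matched by symbol and all 10 had enough reads to be tested in every comparison.

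RNA-seq of polyadenylated RNA was done on 12 libraries of 1 mouse each, 3 mice per group. The livers came from male FVB mice with TRE-MYC and LAP-tTA, in which MYC is turned on in hepatocytes when doxycycline is withdrawn at birth (MYC-ON livers). They were fed the control diet (mice 101, 102 and 103) or the No-Trp diet, which lacks tryptophan (mice 105, 107 and 108). The xenografts were grown from HCC53N, a single line of mouse liver cancer cells, in hosts labelled NOD-SKID that were fed the control diet (mice 40, 41 and 43) or the No-Trp diet (mice 35, 36 and 37). The study's methods describe the line as derived from tumors of Alb-Cre; p53 fl/fl mice with G12V Nras and injected subcutaneously in the flank of NOD SCID females, with repeats in males, while the labels give the cells as FVB MYC ON and generated from Myc with p53 knocked out. Whether the cells carry the MYC transgene was not settled here. All mice ate their diet for 21 days, and the labels give no age for them. The study's diet table lists the same mineral mix for all its diets, but iron intake, blood cell counts and body iron are not analysed here.

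Hepcidin is a peptide hormone that hepatocytes secrete. It binds ferroportin, the product of Slc40a1 and the only known iron exporter of mammalian cells, and causes its loss from the cell surface, so that less iron enters the blood from gut, macrophages and liver. Hepatocytes raise Hamp transcription when BMP6 and BMP2, made by the sinusoidal endothelial cells of the liver, signal through SMAD proteins, when iron-loaded transferrin is sensed through HFE and TFR2, and when inflammation acts through IL-6 and STAT3. They lower it when erythroferrone, a hormone of red cell precursors, rises. Inside cells, iron regulatory proteins bind hairpins called iron-responsive elements. In a 3′ UTR such hairpins protect the transcript when iron is scarce, and in a 5′ UTR they block translation, which read counts do not show.

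The sequences of the 2 control points are shown because the Hamp promoter and the iron-responsive elements are known sites of control for some of the members. The mouse genome holds a second hepcidin gene, Hamp2, next to Hamp on chromosome 7, and it was described beside the members. The 50 bases from −125 to −76 before the RefSeq start of each gene (GRCm38.p6, minus strand) are printed 5′ to 3′, with capitals marking the BMP response element GGCGCC, or the letters aligned with it in Hamp2, and the match to the STAT site TTCNNNGAA.
Hamp, chr7:30944105-30944154: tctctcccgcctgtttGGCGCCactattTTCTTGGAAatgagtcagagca
Hamp2, chr7:30924257-30924306: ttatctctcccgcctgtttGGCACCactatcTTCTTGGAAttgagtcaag

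The 2 promoters carried the same STAT letters, at −97 in Hamp and −94 in Hamp2, and differed in the BMP element by the substitution G4A, counted from 1 at the element's 5′ end with the base of Hamp first. Over the 250 bases before the start, 227 of 247 aligned bases were identical (91.9%), and over the coding sequence 233 of 249 (93.6%), so reads from one gene can fit the other and the split of counts between them is uncertain. Searched on both strands in the 32851 RefSeq promoters of 250 bases before to 50 after a start, GGCGCC was found in 11.9%, TTCNNNGAA in 8.3% and both in 0.645%. Of the members, 7 had promoter entries (none for Trf, Slc40a1 and Slc11a2). Among these, Hamp alone had both motifs in one promoter, Tfrc had GGCGCC at −89 in 1 of its promoters, and Tfr2, Hfe, Bmp6, Fth1 and Ftl1 had neither. A match is a description of letters and not a mapped binding site.

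Matches to an iron-responsive element of 17 bases (an unpaired C, 5 bases, the loop CAGTG followed by A, C or T, and 5 bases that pair with the first 5) were searched in the GENCODE M21 transcripts on GRCm38. Capitals mark the loop. Matches were found in 222 of 21877 protein-coding genes (1.01%). Of the members, Tfrc held 4 in its 3′ UTR and Slc40a1, Fth1 and Ftl1 held 1 each in their 5′ UTR, while Hamp, Tfr2, Trf, Hfe, Slc11a2 and Bmp6 held none with these letters. The pattern requires all 5 pairs of the stem, so an element with another stem is missed. A gene without a match, Slc11a2 included, is not shown to lack such an element. The sequences are of the C57BL/6J reference and not of the FVB and NOD animals studied.
Tfrc 3′ UTR, chr16:32631225-32631241 (plus strand): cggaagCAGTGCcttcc
Tfrc 3′ UTR, chr16:32631604-32631620 (plus strand): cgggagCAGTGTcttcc
Tfrc 3′ UTR, chr16:32631669-32631685 (plus strand): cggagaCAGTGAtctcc
Tfrc 3′ UTR, chr16:32631716-32631732 (plus strand): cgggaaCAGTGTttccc
Slc40a1 5′ UTR, chr1:45925471-45925487 (minus strand): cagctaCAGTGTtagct
Fth1 5′ UTR, chr19:9982738-9982754 (plus strand): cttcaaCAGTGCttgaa
Ftl1 5′ UTR, chr7:45459785-45459801 (minus strand): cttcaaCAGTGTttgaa

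Levels are given as CPM, counts scaled to a common library total with the TMM factors of the 12 libraries. The libraries held 14660963 to 26085349 reads on genes. The ribosomal RNA gene Rn45s took 12.1% of the reads of control liver 101, 2.22% of those of control liver 102 and at most 0.758% elsewhere. The files of control liver 101, No-Trp liver 108 and control xenografts 41 and 43 are marked as resubmitted, a mark that may or may not reflect a sequencing batch. Control xenograft 40 has a file named unlike the others, so its diet is known from the labels alone. Libraries of one group differed by more than sampling noise, by 34.6 to 274 times the variance that counting allows. Genes are called higher or lower where edgeR's quasi-likelihood test gave an adjusted p up to 0.05 (Benjamini-Hochberg, over all genes tested) and the log2 fold change reached 1 or −1.

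In MYC-ON livers on the No-Trp diet, transcripts of hepcidin, of its upstream sensors Hfe and Tfr2 and of both ferritin subunits rose, and that of the transferrin receptor fell. Of the 10 members, 5 were called higher (Hamp, Tfr2, Hfe, Fth1 and Ftl1) and 1 lower (Tfrc), where 16.5% of the 14122 genes tested were called (9.28% higher and 7.27% lower). That is 1311 genes higher and 1026 lower, a split that scaling by library totals turned to 732 and 1532. The groups did not overlap for 7 members that were higher and 2 that were lower on the No-Trp diet, against 48.6% of all genes tested (23.6% higher and 25% lower). The median log2 fold change of the members was 1.20 and that of all genes −0.00309. All of these calls ended when control liver 103 was left out, as did those of all 38 genes named here, members included, that were called in livers and refitted. The summed level of the 12 hepatocyte markers was 14386 to 45976 CPM on the control diet and 63439 to 153828 CPM on the No-Trp diet. In bulk tissue, fewer cells of a type and less RNA per cell cannot be told apart. The paper reports lighter livers with fewer and smaller tumors in MYC-ON mice on the No-Trp diet than on the control diet. It also reports lower MYC expression in the livers on the No-Trp diet. The groups of livers compared here may therefore differ in tumor content as well as in diet. The part of tumor content in the values of the members was not tested.

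**Figure D1:**
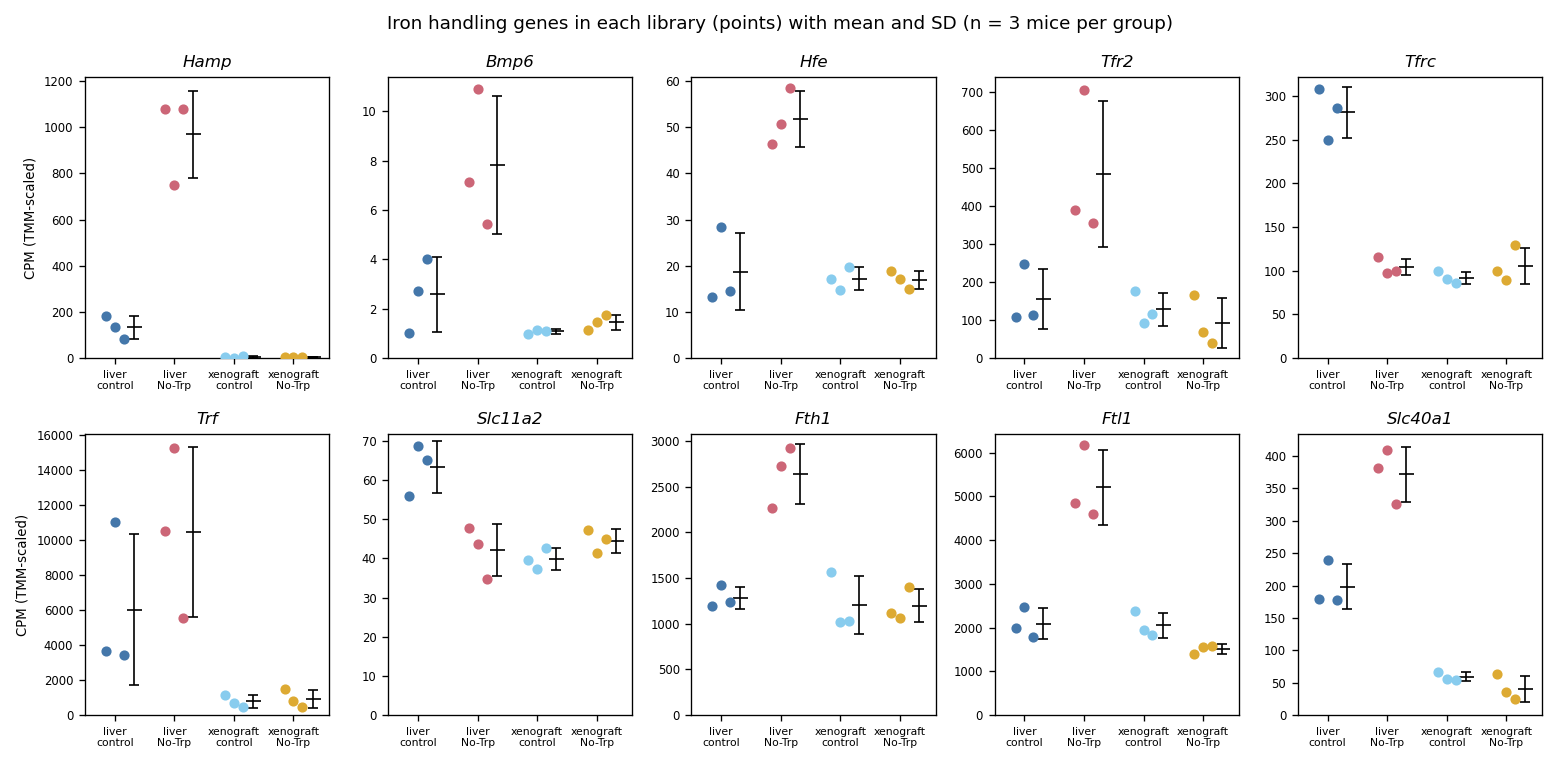
Level of each of the 10 members (vertical axis, CPM after TMM scaling, linear from 0) in the 12 libraries, grouped by model and diet on the horizontal axis. Points are single mice, and the bar beside each group is its mean with the SD of 3 mice. In livers Hamp lies between 81.6 and 181 CPM on the control diet and between 750.0 and 1080.0 CPM on the No-Trp diet, while Tfrc moves the other way.

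Hamp, which encodes the hormone, was measured at 181, 136 and 81.6 CPM in control livers 101, 102 and 103 and at 1080.0, 750.0 and 1078 CPM in No-Trp livers 105, 107 and 108. Every No-Trp liver was above every control liver. Hamp rose 7.39-fold (log2 fold change 2.89, SE 0.34, adjusted p = 0.0127). The reads behind these levels numbered 2044 to 3745 per control liver and 12195 to 18880 per No-Trp liver. Within the livers without the resubmission mark the log2 ratio of mean CPM was 3.07 (2 mice against 2), and within the marked ones it was 2.58 (1 against 1). Leaving out control liver 103 kept a log2 fold change of 2.62 but ended the call (adjusted p = 0.0784), and it left 7 genes called higher and 1 called lower in the whole table.

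Hamp2, the second hepcidin gene, was at 11.3, 8.0 and 2.68 CPM in control livers 101, 102 and 103 and at 94.3, 107 and 32 CPM in No-Trp livers 105, 107 and 108. The groups did not overlap, and No-Trp liver 108 was the lowest of its group. Hamp2 rose with a log2 fold change of 3.43 (SE 0.65, adjusted p = 0.0211). The log2 ratio of mean CPM was 4.24 within the unmarked livers and 1.5 within the marked ones, and the call was lost without control liver 101 or 103 or No-Trp liver 105 or 107 (adjusted p up to 0.0833).

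The sensors of transferrin-bound iron rose with Hamp. Tfr2, which encodes the second transferrin receptor and is mainly a sensor in hepatocytes, was at 107, 248 and 113 CPM in control livers 101, 102 and 103 and at 391, 706 and 357 CPM in No-Trp livers 105, 107 and 108 (log2 fold change 1.66, SE 0.42, adjusted p = 0.0326). Hfe, the gene mutated in the common form of hereditary hemochromatosis, was at 13.3, 28.4 and 14.5 CPM in the control livers and at 46.3, 50.7 and 58.4 CPM in the No-Trp livers, in the same order (log2 fold change 1.49, SE 0.31, adjusted p = 0.0228). For both genes control liver 102 was the highest of its group and still below every No-Trp liver. The same liver had the most hepatocyte marker signal of the control group, 45976 CPM against 17438 CPM in liver 101 and 14386 CPM in liver 103, and its part in these values was not tested.

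Bmp6, the ligand that signals iron stores to hepatocytes, was the rarest member, with 21 to 101 reads per control liver and 70 to 177 per No-Trp liver. It was at 1.01, 2.7 and 4.03 CPM in control livers 101, 102 and 103 and at 7.15, 10.9 and 5.44 CPM in No-Trp livers 105, 107 and 108. The groups did not overlap, but the log2 fold change of 1.61 (SE 0.52) missed the threshold (adjusted p = 0.0588). It was called by DESeq2 (adjusted p = 0.0124), which so called 6 members higher, and also with the resubmission term (0.0265) and in 1 fit over all 12 libraries (0.0212). It shares 224 exonic bases with Txndc5 on the other strand, and since the strand setting of the counting is not given, some of its reads may belong to that gene.

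Tfrc, the transferrin receptor through which most cells take up iron, was the one member called lower. It was at 308, 250.3 and 286 CPM in control livers 101, 102 and 103 and at 115, 97.7 and 99.7 CPM in No-Trp livers 105, 107 and 108. All control livers were above all No-Trp livers, and the coefficient of variation within each group was 10.3% and 9.18%. Tfrc fell by 1.42 on the log2 scale (SE 0.16, adjusted p = 0.0125), a level 2.67-fold lower. Leaving out control liver 103 kept the log2 fold change at −1.41 and raised the adjusted p to 0.0784. Per kilobase of transcript, Tfrc and Tfr2 had mean levels of 57.6 and 53.4 CPM per kb in control livers and of 21.3 and 166 CPM per kb in No-Trp livers.

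The other uptake genes were not called. Trf encodes transferrin, the iron carrier of plasma and a major secreted product of hepatocytes, and it was at 3650.4, 11005.5 and 3409 CPM in control livers 101, 102 and 103 and at 10488, 15269 and 5560.5 CPM in No-Trp livers 105, 107 and 108. The groups overlapped through control liver 102 and No-Trp liver 108 (log2 fold change 0.82, SE 0.61, adjusted p = 0.343). Slc11a2, which encodes the iron importer DMT1 of the gut and of endosomes, was at 56.0, 68.8 and 65.3 CPM in the control livers and at 47.9, 43.7 and 34.8 CPM in the No-Trp livers. Its groups did not overlap, and its log2 fold change of −0.57 (SE 0.17) missed the test by little (adjusted p = 0.0503). It shares 402 exonic bases with Gm5475 on the other strand.

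Both ferritin subunits, which form the shell that stores iron, rose at the transcript level. Fth1, the heavy subunit, was at 1189, 1421 and 1242 CPM in control livers 101, 102 and 103 and at 2272, 2725 and 2919 CPM in No-Trp livers 105, 107 and 108 (log2 fold change 1.06, SE 0.25, adjusted p = 0.0286). Ftl1, the light subunit, was at 1996, 2471 and 1781 CPM in the control livers and at 4846, 6179 and 4587 CPM in the No-Trp livers (log2 fold change 1.34, SE 0.30, adjusted p = 0.0256). Neither pair of groups overlapped. Fth1 lay at the fold threshold. Scaled by library totals and not by TMM, its log2 fold change was 0.76, and it was no longer called. Both genes have processed pseudogenes, so their counts are uncertain to the extent that the authors' counting dropped reads with several alignments.

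Slc40a1, the exporter on which hepcidin acts, was at 179, 239 and 177 CPM in control livers 101, 102 and 103 and at 381, 408 and 325 CPM in No-Trp livers 105, 107 and 108. The groups did not overlap, and the test was passed (adjusted p = 0.0238), but the log2 fold change of 0.92 (SE 0.20) stayed below the fold threshold. It is known to be made by macrophages as well as by hepatocytes. Of 12 Kupffer cell and macrophage markers, none was called by edgeR or by DESeq2 (2 and 3 had an unadjusted p under 0.05). With edgeR, 1 of them passed the adjusted p as higher, below the fold threshold. Their summed level was 656 to 1024 CPM on the control diet and 508 to 1099 CPM on the No-Trp diet. Cd163, a macrophage gene placed in the heme list below, was called higher. Of the genes tested in livers, 25.3% passed the adjusted p alone (13.3% higher and 12% lower).

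**Figure D2:**
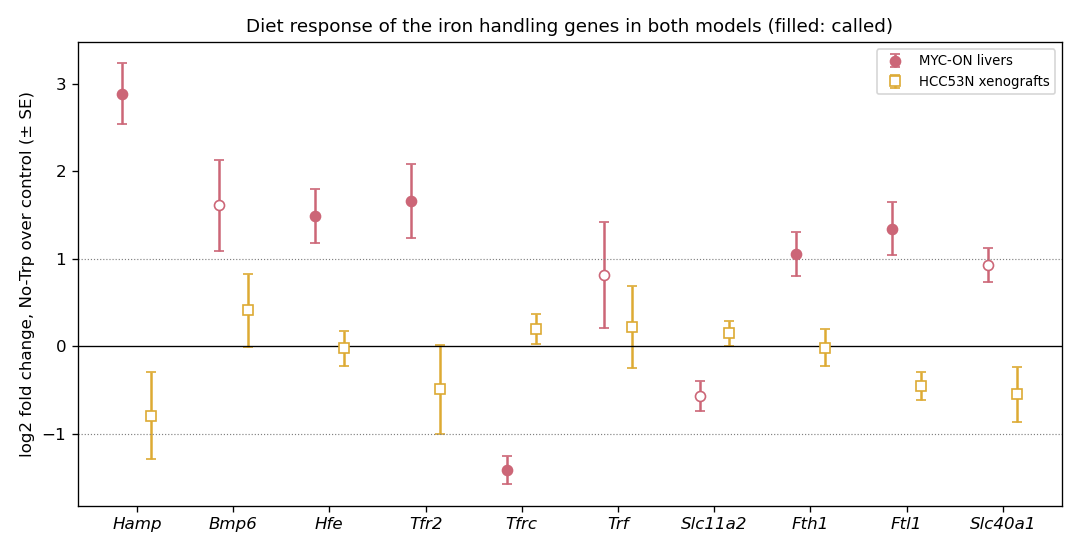
Log2 fold change of each member between the diets, No-Trp over control (vertical axis, with its SE), in MYC-ON livers (circles) and in HCC53N xenografts (squares). Filled symbols are called genes and dotted lines mark a log2 fold change of 1 in either direction. In livers 5 members are called higher and Tfrc is called lower, and in xenografts no member is called.

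The list of 18 other genes that control hepcidin through BMP and SMAD signalling held both rises and falls. In livers 2 were called higher, 2 lower and 14 were not called, against the 16.5% of all genes, and the median log2 fold change was 0.415. Bmp2, the ligand which with BMP6 drives hepcidin, was at 6.85, 7.39 and 11.5 CPM in the control livers (lowest, median and highest) and at 29.4, 30.4 and 46.7 CPM in the No-Trp livers. The groups did not overlap, and Bmp2 rose (log2 fold change 2.07, SE 0.29, adjusted p = 0.0142). Atoh8, a transcription factor gene known to respond to BMP signalling in liver, was at 1.28, 1.59 and 4.73 CPM against 35.6, 38.1 and 38.4 CPM. It had the largest rise of the list (log2 fold change 3.92, SE 0.50, adjusted p = 0.0136).

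Of the classical SMAD targets and brakes, Smad7, which encodes an inhibitory SMAD, was at 13.1, 13.6 and 15.5 CPM in the control livers and at 17, 26.7 and 39.1 CPM in the No-Trp livers (log2 fold change 1.00, SE 0.30). Id1, a standard readout of BMP signalling, was at 7.78, 14.2 and 14.8 CPM against 19.0, 20.7 and 28.3 CPM (log2 fold change 0.90, SE 0.30). Neither pair of groups overlapped, and neither gene passed the test (adjusted p = 0.0502 and 0.0645). Tmprss6, the hepatocyte protease that cuts hemojuvelin and so lowers hepcidin, was at 61.4, 81.5 and 259 CPM against 309, 391 and 633 CPM and missed the test as well (log2 fold change 1.75, SE 0.58, adjusted p = 0.0645). Hfe2, the hemojuvelin gene Hjv under its older symbol, had a log2 fold change of 0.44 (adjusted p = 0.251) with groups that overlapped. The receptors and SMAD proteins of the pathway, Bmpr1a, Acvr1, Acvr2a, Smad1, Smad5 and Smad4, had log2 fold changes between −0.45 and 0.43 and were not called. Bmpr2, a type II BMP receptor, was at 31.8, 33.8 and 35.3 CPM against 43.4, 51.0 and 56.6 CPM and passed the test below the fold threshold (log2 fold change 0.60, SE 0.16, adjusted p = 0.0379).

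Of the 18 genes of that list, 11 had a positive and 7 a negative log2 fold change. The 2 that were called lower encode secreted proteins that lower signalling by BMP or related ligands. Fam132b, the erythroferrone gene Erfe under its older symbol, was at 6.67, 7.91 and 8.28 CPM in the control livers and at 0.246, 1.17 and 1.54 CPM in the No-Trp livers, with 147 to 167 reads against 4 to 27. It fell by 2.93 on the log2 scale (SE 0.55, adjusted p = 0.0198). Red cell precursors are its known source. In the same livers 8 of the 11 erythroid markers tested were called lower and none higher. Of all genes, 7.27% were called lower and 9.28% higher. The median log2 fold change of these markers was −4.62, with Slc4a1 at −5.53 and Rhag at −5.48. Their summed level was 86.2 to 783 CPM on the control diet and 22.3 to 39.8 CPM on the No-Trp diet. The adult globin genes Hba-a1, Hbb-bs and Hbb-bt were listed at 0 in all livers and give no information on red cells here. The part of erythroid cells in the fall of Fam132b was not tested. Fstl3, which encodes a secreted antagonist of activins and related ligands, was at 4.54, 4.73 and 7.95 CPM against 0.984, 1.63 and 2.57 CPM and fell by 1.71 on the log2 scale (SE 0.44, adjusted p = 0.0326).

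**Figure D3:**
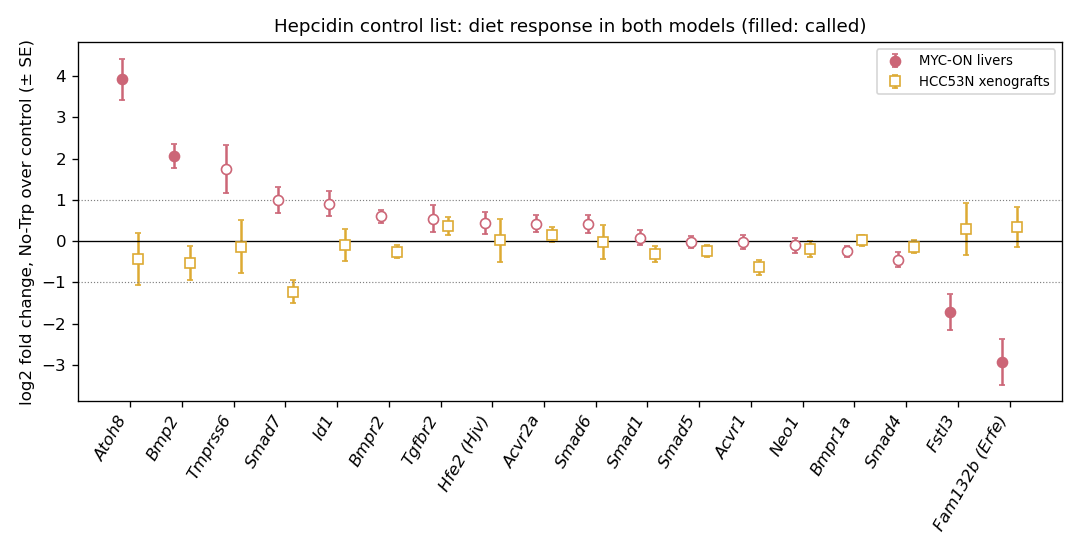
Log2 fold change between the diets, No-Trp over control, with its SE (vertical axis) for the 18 genes of the hepcidin control list, in MYC-ON livers (circles) and HCC53N xenografts (squares). Filled symbols are called genes. In livers Atoh8 and Bmp2 are called higher and Fstl3 and Fam132b (Erfe) lower, and in xenografts none of the 18 is called.

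The inflammatory inputs to hepcidin moved in both directions, where 16.5% of all genes tested in livers were called (9.28% higher and 7.27% lower). Of 12 genes tested, 4 were called higher, among them the IL-6 receptor genes Il6ra (log2 fold change 1.80, adjusted p = 0.0426) and Il6st (1.17, adjusted p = 0.0361) and Creb3l3, a hepatocyte transcription factor gene (1.05, adjusted p = 0.0375). The 2 that were called lower were the acute phase genes Saa1, at 2.56, 8.99 and 10.5 CPM in control livers and at 0.311, 0.801 and 0.923 CPM in No-Trp livers, and Saa2. Saa1 fell by 3.38 (SE 0.64, adjusted p = 0.0200) and Saa2 by 4.61 on the log2 scale (SE 1.05, adjusted p = 0.0263), on 0 to 6 reads per No-Trp liver for Saa2. Socs3, a target of IL-6 and STAT3 signalling, had overlapping groups (log2 fold change −0.20, adjusted p = 0.764), and so had Lcn2, which encodes the siderophore-binding lipocalin (1.35, adjusted p = 0.102).

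Among 11 further genes of iron uptake, reduction and export tested in livers, 1 was called higher and 3 lower. Of all genes, 9.28% were called higher and 7.27% lower. Slc39a14 encodes ZIP14, the hepatocyte importer of iron not bound to transferrin, and rose from 86.3, 136 and 209 CPM to 384, 417 and 490 CPM (log2 fold change 1.60, SE 0.32, adjusted p = 0.0220). Steap3, the endosomal reductase that prepares iron from transferrin for export to the cytosol, fell together with the receptor Tfrc, from 116, 128 and 138 CPM to 40.9, 46.9 and 61.6 CPM (log2 fold change −1.34, SE 0.19, adjusted p = 0.0142). The related genes Steap1 (−1.87, adjusted p = 0.0397) and Steap2 (−1.80, adjusted p = 0.0430) were called lower too. Cp, which encodes the ferroxidase ceruloplasmin, did not pass the test (log2 fold change 1.86, SE 0.64, adjusted p = 0.0694).

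The genes of the iron regulatory proteins themselves were not called in livers. Aco1 had a log2 fold change of 0.40 (adjusted p = 0.198) and Ireb2 one of −0.22 (adjusted p = 0.228). Of the 10 genes tested for iron sensing, chaperones and ferritin turnover, 1 was called, namely Ncoa4, the receptor that delivers ferritin to autophagy, which rose from 48.5, 87.3 and 87.5 CPM to 138, 164 and 226 CPM (log2 fold change 1.26, SE 0.29, adjusted p = 0.0268). The median of that list was −0.209, and 16.5% of all genes tested in livers were called.

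Genes that handle heme were called by edgeR on the side of scavenging and not of synthesis, where 16.5% of all genes were called. This difference was not tested, and Alas1 of the synthesis list missed the threshold by little. Of 12 genes of heme scavenging, transport and breakdown, 4 were called higher and none lower: Hpx, the plasma heme carrier hemopexin (log2 fold change 2.00, SE 0.60, adjusted p = 0.0478), Blvrb (1.40, adjusted p = 0.0373), Cd163, the hemoglobin scavenger receptor of macrophages (1.38, adjusted p = 0.0331), and Slc48a1 (1.09, adjusted p = 0.0468). Hp, the haptoglobin gene (0.92, adjusted p = 0.271), and Hmox1, the inducible heme oxygenase (−0.15, adjusted p = 0.754), were not called. Of the 8 genes of heme synthesis none was called by edgeR and 1 by DESeq2, with 2 at an unadjusted p under 0.05 in each. Their summed level was 642 to 1537 CPM in control livers and 1880 to 3776 CPM in No-Trp livers. Alas1, the rate-limiting step of that pathway in liver, was at 53.2, 73.8 and 461 CPM in control livers and at 915, 1305 and 2528 CPM in No-Trp livers, and with a log2 fold change of 3.04 (SE 0.91) it missed the threshold (adjusted p = 0.0503). Control liver 102 held the highest of the control values, and without it the log2 fold change was 4.64 (adjusted p = 0.00288). Alas1 was also called with DESeq2, the stricter count filter, the resubmission term and 1 fit over all 12 libraries (adjusted p 0.00953 to 0.0494). Its red cell form, Alas2, fell with the erythroid markers (−3.65, adjusted p = 0.0202).

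Of 20 genes of mitochondrial iron and iron-sulfur cluster assembly, 1 was called higher and 1 lower, with a median of 0.0397. Of all genes tested in livers, 16.5% were called. Fdx1, an electron carrier for steroid and cluster synthesis, rose by 1.28 on the log2 scale (adjusted p = 0.0336), and Slc25a37, mitoferrin 1, the mitochondrial iron importer best known from red cell precursors, fell by 1.09 (adjusted p = 0.0311).

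Marker transcripts of several cell types moved with these values in livers. Of all genes tested there, 9.28% were called higher and 7.27% lower. Of the 11 hepatocyte markers tested 5 were called higher and none lower (median log2 fold change 1.70). They were led by Tat (4.43), Ahsg (2.7), which encodes fetuin A, and Apoc3 (2.08), beside 2.89 for Hamp and −1.42 for Tfrc, and Hamp was not tested against them. Of the 12 markers of sinusoidal and vascular endothelium, the known source of Bmp2 and Bmp6 in liver, 5 were called higher and none lower (median 0.993), from a summed level of 189 to 326 CPM to 384 to 565 CPM. The largest were Clec4g (1.97), Fcgr2b (1.62) and Oit3 (1.58), genes of sinusoidal endothelium. Of the 12 log2 fold changes, 9 were positive and 3 negative. The pan-endothelial genes Pecam1 (0.16, adjusted p = 0.654) and Cdh5 (−0.09, adjusted p = 0.847) were not called. They were named after their values were seen, and a contrast between sinusoidal and pan-endothelial genes was not tested. Of 10 stellate cell and fibroblast markers 3 were called higher (Reln, Dcn and Hgf) and none lower. In this list 6 log2 fold changes were positive and 4 negative, and 1 of the negative ones passed the adjusted p below the fold threshold. The summed level was 703 to 878 CPM on the control diet and 693 to 956 CPM on the No-Trp diet. The part of any of these cell types in the values of the members was not tested.

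**Figure D4:**
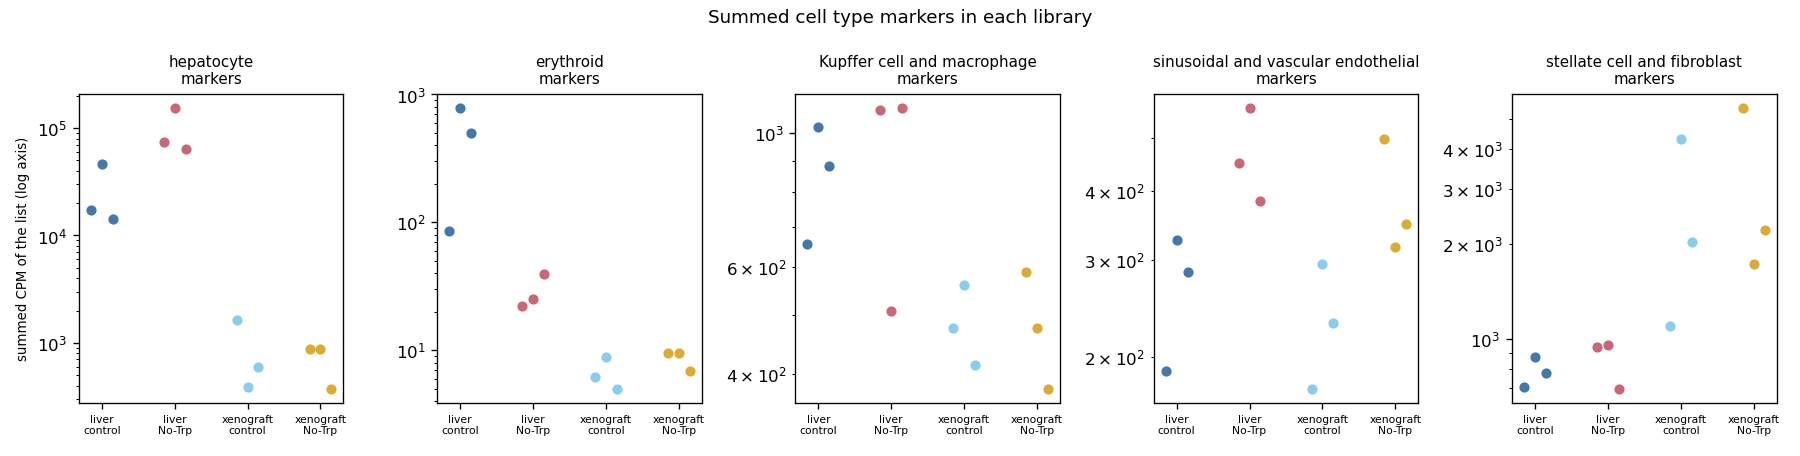
Summed CPM of 5 lists of cell type markers (vertical axes, logarithmic) in each of the 12 libraries, by model and diet. Points are single mice. In livers the hepatocyte sum lies between 14386 and 45976 CPM on the control diet and between 63439 and 153828 CPM on the No-Trp diet, the erythroid sum falls to at most 39.8 CPM, and the hepatocyte sum of the xenografts stays at or below 1622 CPM.

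The genes whose pattern over the 6 livers was most like that of Hamp, by Pearson's r of log2 CPM among 10754 genes with a mean of at least 100 reads, were Fam195b (r = 0.995), Rab23 (0.992), Slc39a11 (0.990), Cdc37l1 (0.990) and Phospho2 (0.988). Those most like Tfrc were Zcchc8 (1.00), Aven (0.999), Lin9 (0.999), Tubb4b (0.996) and Usp37 (0.995). The r reached 0.95 for 169 genes with Hamp and for 390 with Tfrc. All share the same 6 libraries and the diet split, so these values describe likeness in these livers only.

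In HCC53N xenografts no member was called between the diets by edgeR or by DESeq2, where 0.360% of 14704 genes were called by edgeR (0.245% higher and 0.116% lower, or 36 and 17 genes, and 60 and 11 with library totals), and 1 of the 10 members had an unadjusted p under 0.05 with either tool. That member was Ftl1, at 2381, 1935 and 1839 CPM in control xenografts 40, 41 and 43 and at 1387, 1551 and 1587 CPM in No-Trp xenografts 35, 36 and 37. Its groups did not overlap, as for 22.6% of all genes (10.8% higher and 11.8% lower), and its level was lower on the No-Trp diet (log2 fold change −0.45, SE 0.16, adjusted p = 0.213). Since both marked libraries are controls, the resubmission mark and the diet are partly mixed in the xenografts. Against control xenograft 40 alone, the 3 No-Trp tumors had a log2 ratio of mean CPM of −0.66 for Ftl1. The line and its hosts are both mouse, so reads of host cells in the xenografts cannot be told from those of the line.

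Hamp was low in the xenografts, at 5.84, 2.27 and 10.1 CPM in control xenografts 40, 41 and 43 and at 3.88, 3.67 and 2.97 CPM in No-Trp xenografts 35, 36 and 37. These levels stand for 57 to 166 and 70 to 110 reads per library. The groups overlapped (log2 fold change −0.80, SE 0.50, adjusted p = 0.457). Hamp2 had 2 to 14 reads per xenograft and was too low to be tested there. The labelled liver origin of the tumors was weakly marked, since the 11 hepatocyte markers tested were all called lower than in livers, with summed levels of 390 to 1622 CPM on the control diet and 371 to 880 CPM without tryptophan. Ass1 was listed at 0 in all xenografts. Only 11 of the 12 hepatocyte markers had enough reads to be tested in livers as well. The 0 of Ass1 is therefore not read as a trait of the tumors.

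Tfrc was at 99.2, 90.3 and 86.1 CPM in control xenografts 40, 41 and 43 and at 99.4, 88.9 and 129 CPM in No-Trp xenografts 35, 36 and 37. The groups overlapped, and the difference was small against its error (log2 fold change 0.19, SE 0.17, adjusted p = 0.614). Slc40a1 was at 67.0, 56.0 and 54.8 CPM against 63.1, 35.4 and 24.2 CPM (log2 fold change −0.55, SE 0.32, adjusted p = 0.426). No-Trp xenograft 35 overlapped the controls, and the other two No-Trp tumors lay below them. Fth1 was at 1571, 1022 and 1029 CPM against 1122, 1063 and 1404 CPM (log2 fold change −0.02, SE 0.21).

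The remaining members of the xenografts had overlapping groups. Tfr2 ranged from 93.3 to 177 CPM on the control diet and from 40.1 to 167 CPM on the No-Trp diet (log2 fold change −0.50, SE 0.51), and Hfe from 14.7 to 19.7 and from 15 to 18.9 CPM (−0.03, SE 0.20). Trf ranged from 474 to 1171 and from 474 to 1486 CPM (0.22, SE 0.47), Slc11a2 from 37.2 to 42.7 and from 41.3 to 47.2 CPM (0.15, SE 0.14), and Bmp6 from 0.981 to 1.16 and from 1.12 to 1.74 CPM (0.41, SE 0.42). Of all the list genes outside the members, pathway and marker lists together, Steap4, a metalloreductase, was the only one that edgeR called in xenografts, from 3.23, 3.28 and 5.70 CPM to 16.1, 25.8 and 29.5 CPM (log2 fold change 2.53, SE 0.33, adjusted p = 0.0259). Its call was lost without control xenograft 43 or No-Trp xenografts 35 or 37 (adjusted p up to 0.103), with the resubmission term (0.157) and in 1 fit over all 12 libraries (0.123). DESeq2 called Steap4 as well, with genes of 6 other lists, among them 2 of the inflammatory inputs and 2 of heme scavenging that were higher and 1 of hepcidin control that was lower.

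Whether the diet response differed between the models was asked with an interaction term, fitted to the 12 libraries together. Of the 10 members, 6 were called, 1 with a higher response in xenografts than in livers and 5 with a lower one, where 12.7% of 15472 genes were called (6.70% higher and 6.01% lower, or 1036 and 930 genes, and 1825 and 437 with library totals). Higher and lower here give the sign of the difference and not the size of the response. Tfrc counts as higher, with a log2 fold change of −1.42 in livers and 0.19 in xenografts. The differences in log2 fold change, xenografts minus livers, were −3.64 for Hamp (SE 0.62, adjusted p = 0.00773), 1.64 for Tfrc (SE 0.23, adjusted p = 0.00446) and −1.77 for Ftl1 (SE 0.29, adjusted p = 0.00683). These 3 stayed called when each library was left out in turn, with adjusted p up to 0.0256. Hfe (−1.48, adjusted p = 0.0245), Slc40a1 (−1.44, adjusted p = 0.0322) and Fth1 (−1.05, adjusted p = 0.0381) were also called, and each lost the call when some single libraries were left out.

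Slc11a2 passed the test below the fold threshold (0.75, adjusted p = 0.0378), as did 15.6% of genes with or without the fold (8.25% higher and 7.39% lower), while Tfr2 (−2.11, SE 0.72, adjusted p = 0.0681), Bmp6 (−1.18, adjusted p = 0.237) and Trf (−0.56, adjusted p = 0.669) did not pass it. Of the hepcidin control genes, the difference was negative for Atoh8 (−4.31), Bmp2 (−2.58) and Smad7 (−2.19). It was positive for Fam132b (3.29), which fell in livers. The adjusted p of these differences lay between 0.0118 and 0.0183, and edgeR called none of these genes between the diets in xenografts. The models differ in the strain and possibly the sex of the mouse that ate the diet, in the site of the tumor and in the genes that drive it, and these cannot be told apart.

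The levels of the members on each diet also differed between the models. On the control diet 5 members were called lower in xenografts than in livers and none higher, where 43.5% of all genes were called (20.2% lower and 23.3% higher). They were Hamp (log2 fold change −4.46, SE 0.48, adjusted p = 1.04e-05), Trf (−2.96), Slc40a1 (−1.74), Tfrc (−1.62) and Bmp6 (−1.26, adjusted p = 0.0363). The call of Bmp6 was lost with library totals, with the resubmission term (−0.84, adjusted p = 0.150) and without control liver 102 or 103 or control xenograft 40, 41 or 43, and its value without liver 103 was −0.78 (adjusted p = 0.197). Tfr2 (−0.28), Hfe (−0.13), Fth1 (−0.09) and Ftl1 (−0.02) had small differences against their errors (SE 0.51, 0.27, 0.21 and 0.20), and those of Tfr2, Hfe, Fth1 and Ftl1 changed sign with the setting or the library left out.

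On the No-Trp diet 8 members were called lower in xenografts and none higher, where 43.7% of all genes were called (19.1% lower and 24.5% higher, or 2959 and 3796 genes, and 2024 and 5797 with library totals). The difference was −8.11 for Hamp (SE 0.57, adjusted p = 2.91e-07), −3.18 for Slc40a1 and −1.79 for Ftl1. Tfrc had a log2 difference of 0.02 (SE 0.16, adjusted p = 0.915) and Slc11a2 one of 0.08 (SE 0.15, adjusted p = 0.685), both with overlapping groups and a sign that turned under other settings. The 4 groups therefore ordered differently for these genes: Hamp had mean levels of 969 CPM in No-Trp livers, 133 CPM in control livers, 6.07 CPM in control xenografts and 3.51 CPM in No-Trp xenografts, and the xenograft groups did not differ beyond their spread. Tfrc had 281 CPM in control livers and 106, 104 and 91.9 CPM in No-Trp xenografts, No-Trp livers and control xenografts, which overlapped one another. The 2 comparisons between models share libraries with the diet comparisons, so none of them is independent of the others.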

How the data were processed

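Polyadenylated RNA of 12 mice was sequenced. Raw read counts were deposited, one file per mouse. To make them, the authors used Trim Galore, STAR 2.7.2b (mm10) and HTSeq, and did not normalize. The strand setting and the overlap rule are not given in the sources used here. The 5 HTSeq rows of reads on no gene, 24.7% to 39.4% of a library's reads, were left out. Groups came from the sample titles.

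Diets were compared within each model, and the models and the interaction over all 12 libraries, with edgeR 4.0.16 in R 4.3.3 (TMM, filterByExpr, robust glmQLFit, glmQLFTest, two-sided). Each SE was taken as |log2 fold change| over the square root of its F statistic. CPM used the TMM factors of all 12 libraries, which differ from within-model scales by at most 2.64%. Levels per kb used the principal transcript. At a mean of 100 reads, counting error is small beside the spread between mice that edgeR estimated (31.6% in livers, 28.7% in xenografts). Single values with 3 mice per group cannot go below an exact permutation p of 0.1, so only the fit across genes was used. Alternatives were DESeq2 1.42.0, RLE factors, library totals, no filter, a stricter filter of 10 counts per library, a term for resubmission, no fold threshold, Rn45s left out, 1 fit over all 12 libraries, and each library left out.

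Named were all members, Hamp2 and a fixed set of iron genes and, of each of the 12 lists, the called genes with up to 3 of the largest changes in each direction. The receptor (Bmpr2 included) and SMAD genes, Slc48a1, Pecam1 and Cdh5 were named after their values were seen, and 1 erythroid gene that the rule names is not reported here. The members and lists were chosen with earlier results of these data known, so a list's counts are descriptions. Of the list genes, 158 lie outside the members. Sequences came from RefSeq promoters and GENCODE M21 transcripts, both on GRCm38.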

Additional observations from a re-analysis of the deposited data

Results flagged for a closer look

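The following diet responses differed between xenografts and livers by the interaction test of edgeR (adjusted p at most 0.05). Each value is the log2 fold change in xenografts minus that in livers. Among the members it was −3.64 for Hamp, 1.64 for Tfrc, −1.48 for Hfe, −1.44 for Slc40a1, 0.75 for Slc11a2, −1.05 for Fth1 and −1.77 for Ftl1. Of 15472 genes, 15.6% passed this adjusted p.

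Among the other genes named, it was −4.55 for Hamp2, which had 2 to 14 reads per xenograft. For hepcidin control it was −2.19 for Smad7, −4.31 for Atoh8, −2.58 for Bmp2 and 3.29 for Fam132b. For uptake and heme genes it was 1.57 for Steap3, 2.14 for Steap1 and −1.87 for Blvrb. For the acute phase genes it was 6.56 for Saa1 and 9.02 for Saa2, which had 0 to 3 and 0 to 1 reads per control xenograft, so that these sizes depend on the prior count. For erythroid genes it was 4.06 for Alas2, 6.20 for Slc4a1 and 6.87 for Rhag. The erythroid markers together summed to at most 9.61 CPM in any xenograft, so these sizes rest on low levels there. Of that list, 6 genes had enough reads to be tested between the diets in xenografts, against 11 in livers. For the hepatocyte marker Tat the difference was −4.97, and for the endothelial markers −1.26 for Fcgr2b and −2.06 for Oit3. Fcgr2b (adjusted p = 0.0498) lost the call in 10 of 12 fits without 1 library and in 3 of 7 other alternatives. Steap1 lost it in 9 of the 12, Rhag in 8, Slc4a1 in 7, Blvrb and Tat in 5 and Hamp2 in 2. Oit3 and Alas2 kept the call in all 12. Groups of 3 were not searched for libraries that stand apart.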

How the results depend on the processing

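With 3 mice per group, the calls in livers rested on single libraries. The count of members called higher (5) ranged from 0 to 6 over the fits without 1 library (0 without control liver 103, 1 without control liver 101, 1 without No-Trp liver 105 and 3 without No-Trp liver 107), and the count called lower (1) from 0 to 1 (0 without control liver 103). Without control liver 103 the whole table fell from 1311 genes called higher and 1026 lower to 7 and 1. The members called in the interaction with a lower response in xenografts (5) ranged from 2 to 6, with 2 without control liver 103, control xenograft 43 or No-Trp xenograft 36, and 3 without control liver 101, No-Trp liver 107 or control xenograft 40. Library totals gave 2 there and 2 with a higher response. Without a fold threshold, 5 had a lower and 2 a higher response. Library totals moved the median of all genes to −0.296 in livers, 0.106 in xenografts and 0.408 in the interaction. Over all genes in xenografts, edgeR called 36 higher and 17 lower, DESeq2 250 and 130, and edgeR with the resubmission term 3 and 1. Signs turned only where values were small. With library totals Steap4 in livers was −0.0495, Hfe and Fth1 in xenografts 0.0855 and 0.0849, and Hfe, Fth1 and Ftl1 between models on the control diet 0.0415, 0.0674 and 0.144. Ftl1 there was 0.0033 with at least 10 counts per library and 0.0461 with the resubmission term, which gave −0.37 for Trf in xenografts. On the No-Trp diet between models, Tfrc was −0.0874 with DESeq2, −0.0884 with RLE factors and −0.0258 without Rn45s, and Slc11a2 was −0.0394 and −0.0396 with the first pair. Leaving out 1 library, the ranges that crossed 0 were, in livers, −0.44 to 0.16 for Hmox1, −0.54 to 0.35 for Socs3 and −0.18 to 1.24 for Steap4. In xenografts they were −0.31 to 0.64 for Trf, −0.13 to 0.0855 for Hfe and −0.15 to 0.21 for Fth1. Between models on the control diet they were −0.58 to 0.19 for Tfr2, −0.32 to 0.26 for Hfe, −0.325 to 0.0193 for Fth1 and −0.14 to 0.0834 for Ftl1, and on the No-Trp diet −0.14 to 0.13 for Tfrc and −0.0458 to 0.18 for Slc11a2. The causes were not tested. Of the fold changes of members under all alternatives, 807 kept direction and side of the threshold, 48 lost and 13 gained the call, and 32 changed sign. Of those of the other named genes, 824 kept both, 196 lost and 14 gained the call, and 4 changed sign. In livers the call was lost in 5 of 6 fits without 1 library for the member Fth1 and for Hpx, Apoc3, Tat, Fstl3 and Il6st. The same held for Creb3l3, Saa2, Blvrb, Fdx1 and Slc25a37. It was lost in 4 of 6 for the member Tfr2 and for Hamp2, Ncoa4, Il6ra, Cd163, Steap1 and Steap2. Ahsg, Clec4g, Reln and Hgf lost it in 4 as well. No paired analysis was possible because no 2 groups share mouse numbers. Depth limited Hamp2 in xenografts (2 to 14 reads) and Bmp6 in both models (18 to 44 reads in xenografts).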
